A study of Homo sapiens with 9 samples.

Results

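The cadherin superfamily genes described here were the protein-coding genes of the table whose symbols name a numbered cadherin (CDH followed by a number), a protocadherin (PCDH), a FAT cadherin (FAT1 to FAT4), a Dachsous cadherin (DCHS1 and DCHS2) or a CELSR cadherin (CELSR1 to CELSR3). There were 98 such genes among 58735 rows. The rule uses gene names alone and no measured value, but it was chosen with earlier results of these data known. RNA was sequenced from 786-0 cells, an established line of human clear cell renal cell carcinoma (ccRCC), grown in 5 mM glucose at 21% O2 for 48 h, with 3 libraries in each of 3 groups. The study describes 786-0 WT cells as lacking working VHL and carrying a HIF1α gene inactivated by mutation, with HIF2α expressed constitutively. The groups were untreated 786-0 WT cells, 786-0 WT cells given 10 µM PT2385 for 48 h, and untreated 786-0 cells labelled as a knockout (KO) of HIF2α. PT2385 is a small molecule that binds HIF2α and keeps it from its partner, and HIF2α is the hypoxia-inducible transcription factor subunit encoded by EPAS1. How the knockout was made, whether it is 1 clone and what vehicle the untreated cells received are not given in the sources used here, and nothing says whether the 3 libraries of a group came from separate cultures. The p-values therefore measure the spread between these libraries, which may be technical.

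Cadherins are membrane proteins whose extracellular cadherin repeats bind calcium and, in most of them, the same kind of repeat on a neighbouring cell. Classical cadherins (types I and II) hold cells together at adherens junctions and are tied to actin through catenins, and the exchange of E-cadherin for N-cadherin is a familiar mark of epithelial cells that become motile. Clustered protocadherins, of which the alpha and gamma genes are read from alternative first exons, are best known as identity tags of neurons. FAT and Dachsous cadherins feed the Hippo pathway and tissue polarity, while CELSR cadherins are the core adhesion receptors of planar cell polarity.

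The libraries held 11881000 to 14730081 counts, and 3 counts, the limit that a count of 0 allows, came to 0.204 to 0.253 CPM by library, where CPM is the count for every 1000000 counts of the library. This limit covers counting error only. EPAS1 had 3226, 3210 and 2788 counts in WT, 3075, 3317 and 3132 upon PT2385 treatment and 262, 360 and 307 in KO, so the KO libraries lay below all others (log2 fold change -3.52 against WT, SE 0.10, adjusted p = 2.15e-09 by edgeR's quasi-likelihood test with Benjamini-Hochberg adjustment). Of 7 genes chosen as marks of a renal carcinoma line, 6 were above 3 counts in some library, CA9 was not, and their summed level was 5840 to 6260 CPM in WT, 5540 to 6190 upon PT2385 treatment and 5800 to 6180 in KO. Most of this sum was vimentin (VIM, 52161 to 66723 counts), and single members moved within it. PAX2, a renal lineage factor, fell from 394, 377 and 461 counts in WT to 270, 358 and 390 upon PT2385 treatment (log2 fold change -0.44, adjusted p = 0.0325) and 146, 230 and 201 in KO (-1.30, adjusted p = 2.84e-05), while the keratin genes KRT8 and KRT18 rose upon treatment (0.26 and 0.47) and in KO (0.54 and 0.85). None of the 5 endothelial markers and 1 of the 5 leukocyte markers (CD14) passed 3 counts anywhere. The fibroblast list (3 of 5 above 3 counts, DCN and COL1A2 not) summed to 8.74 to 10.1, 10.6 to 13.2 and 5.21 to 7.04 CPM in WT, PT2385 and KO, and the neuronal list (5 of 5) to 14.4 to 16.8, 12.7 to 18.4 and 14.3 to 15.2 CPM. The fibroblast sums differed between the groups without overlap, but the members of that list went opposite ways in KO. PDGFRB had 27, 31 and 28 counts in WT and 2, 2 and 0 in KO, COL1A1 had 69, 77 and 55 and then 24, 39 and 45, and LUM had 15, 15 and 22 and then 43, 60 and 31, and all 3 were called. The part of these markers in the results on cadherins was not tested. In bulk RNA, fewer cells of a type and less RNA per cell cannot be told apart.

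Most counts of the superfamily in the 786-0 cells came from a few genes. Of the 98 genes, 53 stayed at or under 3 counts in every library and 27 of these had no count at all, whereas 9 averaged 100 counts or more. How these shares compare with those of all genes was not tested. The 98 genes together took 1365, 1323 and 1367 CPM of the unscaled library totals in WT, 1644, 1656 and 1623 upon PT2385 treatment, and 1381, 1478 and 1381 in KO, so that every treated library lay above every other library. CELSR cadherins supplied 26.2% of the counts of the superfamily, type I cadherins 25.8%, FAT and Dachsous cadherins 22.9%, type II cadherins 13.9% and gamma protocadherins 7.47%.

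N-cadherin (CDH2) had the highest level per kilobase of exon in each group, at 44.6 CPM per kb in WT, 50.6 upon PT2385 treatment and 37.9 in KO. E-cadherin (CDH1), the junctional cadherin of most epithelia, had no count except 1 in PT2385 replicate 3 and 1 in KO replicate 2. P-cadherin (CDH3) had 1 count in all, in KO replicate 1, and VE-cadherin (CDH5), the endothelial cadherin, had at most 2 counts in a library. In WT the order below CDH2, per kb, was CELSR1 (22.1 CPM per kb), FAT1 (16.5), PCDHGC3 (12.5), CDH6 (8.06), CELSR2 (4.44), CDH13 (3.39), CDH24 (3.25) and FAT4 (2.15). Of these neighbours only CDH13 (3.09 to 3.66) and CDH24 (3.18 to 3.34) had overlapping ranges over the WT libraries. Upon PT2385 treatment CDH6 came next to CDH2, at 21.0 CPM per kb, with FAT1 at 20.4 and CELSR1 at 19.7 close beneath it. In KO PCDHGC3 took that place at 20.2 CPM per kb, and its range (18.99 to 21.97) lay within that of CDH6 (12.7 to 23.6). A level per kb rests on all exon bases of a gene in the annotation, including bases shared with other genes.

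**Figure D1:**
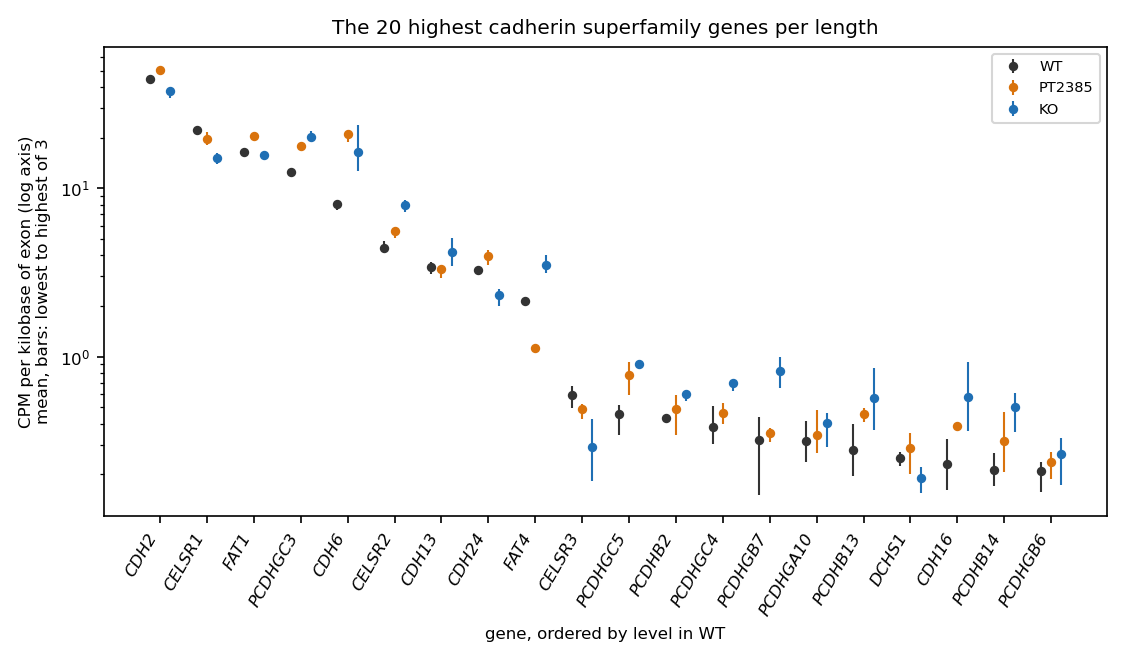
Level in CPM per kilobase of exon (log axis) of the 20 cadherin superfamily genes highest in WT, ordered by their WT level, with a point for the mean of each group and bars from the lowest to the highest of its 3 libraries. CDH2 is highest in every group, and CDH6 moves from 8.06 in WT to 21.0 upon PT2385 treatment and 16.4 in KO.

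Genes were tested where their counts passed edgeR's filter on low counts. This left 24 of the 98 genes in PT2385 against WT, 24 in KO against WT and 23 in KO against PT2385, with 25 tested in at least 1 comparison and 17 called (adjusted p under 0.05) in at least 1. A gene could pass the filter through the group in which it was high, so the counts below describe the tested genes and not the superfamily. Both comparisons against WT use the same 3 WT libraries and are therefore not independent of each other. Groups are said to overlap or not on CPM values.

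Upon PT2385 treatment 6 of the 24 tested genes were up-regulated (CDH6, FAT1, FAT2, CELSR2, PCDH7 and PCDHGC3) and 1 was down-regulated (FAT4), or 29.2% of those tested, where 7.7% of all 15089 genes tested were called (3.08% higher and 4.62% lower). Their median log2 fold change was 0.23, that of all genes tested 0.00099, and 12 of the 24 had groups that did not overlap (25.9% of all genes tested). With the replicate number as a block, 10 of the 24 and 2305 of all genes (15.3%) were called, against 1162 without it.

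In KO against WT 11 of 24 tested genes were higher (CDH6, CDH16, FAT2, FAT4, CELSR2, PCDH7, PCDHGC3, PCDHGC4, PCDHGC5, PCDHGB7 and PCDHB14) and 5 were lower (CDH2, CDH24, CELSR1, CELSR3 and PCDH9), or 66.7%, where 30.1% of all 15192 genes tested were called (14.7% higher and 15.4% lower). The median log2 fold change was 0.67 over the 24 genes and 0.0038 over all genes, and 17 of the 24 had groups that did not overlap (44% of all genes tested). Without WT replicate 2, and likewise without WT replicate 3, 10 of the genes were called.

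In KO against PT2385, which sets the cells labelled as a HIF2α knockout beside the inhibitor, 4 of 23 tested genes were higher (FAT4, CELSR2, PCDH7 and PCDHGB7) and 4 lower (CDH2, CDH24, FAT1 and CELSR1), or 34.8%, where 18.8% of all 15402 genes tested were called (8.47% higher and 10.3% lower). The median log2 fold change was 0.23, against -0.0035 over all genes, and 11 of the 23 had groups that did not overlap (35.1% of all genes tested).

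**Figure D2:**
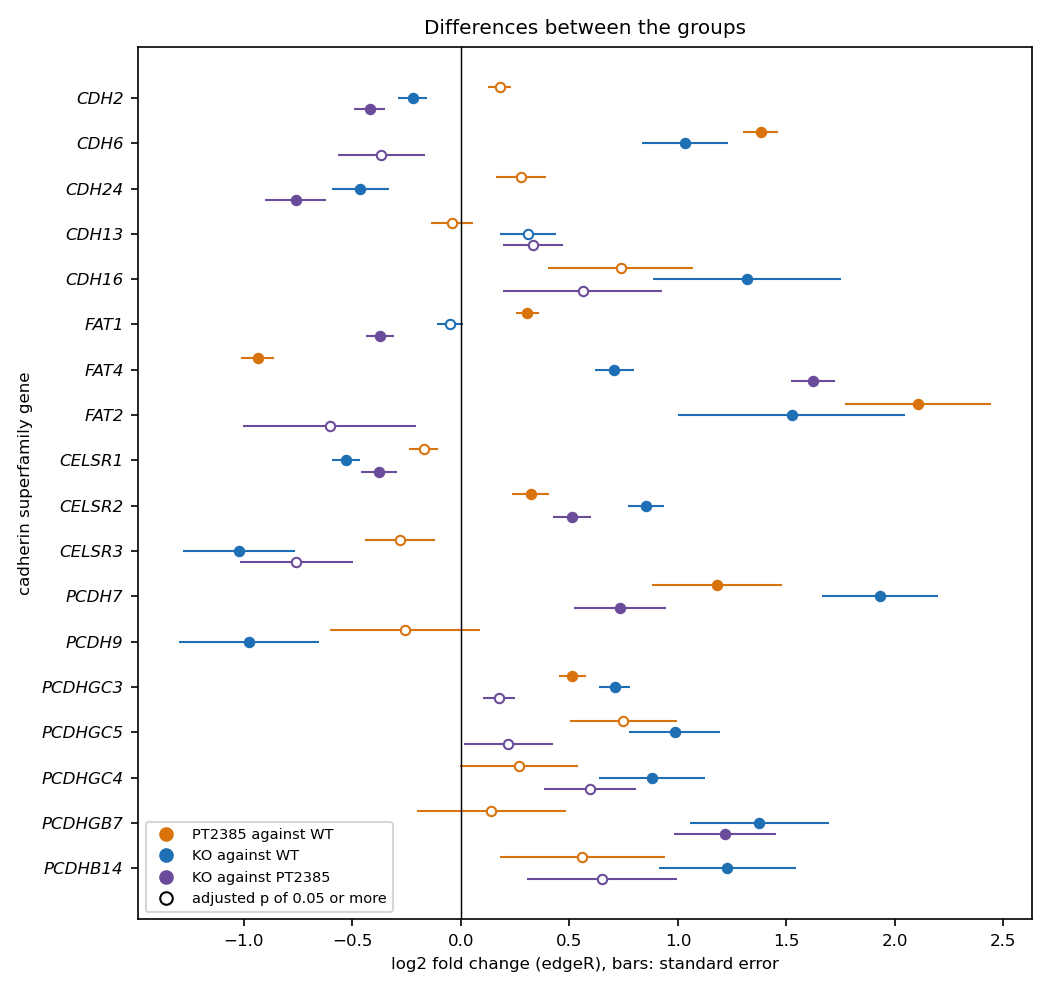
Log2 fold change with its standard error for the 18 named cadherin superfamily genes in PT2385 against WT, KO against WT and KO against PT2385, with filled points for an adjusted p under 0.05 and open points for the rest (edgeR). FAT4 lies on opposite sides of 0 in the comparisons against WT, at -0.94 upon PT2385 treatment and 0.71 in KO.

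CDH6 (K-cadherin, ENSG00000113361, chr5:31193686-31329146 on the plus strand, GRCh38), a type II cadherin of the developing kidney tubule, had the lowest adjusted p of the tested cadherin superfamily genes upon PT2385 treatment. It had 1241, 1130 and 1244 counts in WT, 3430, 3691 and 3344 upon PT2385 treatment and 2054, 4213 and 2321 in KO. All treated and all KO libraries were above all WT libraries, and KO replicate 2 stood far above the other KO libraries. The level was 100.2 ± 6.29 CPM in WT, 262 ± 22.9 upon PT2385 treatment and 204 ± 77.8 in KO (SD, n = 3). CDH6 rose 2.60-fold upon PT2385 treatment (log2 fold change 1.38, SE 0.08, adjusted p = 3.31e-07) and 2.05-fold in KO (1.03, SE 0.20, adjusted p = 0.00232). Without KO replicate 2 the log2 fold change in KO against WT was 0.68 and stayed called. KO and PT2385 overlapped and did not pass the test (log2 fold change -0.37, SE 0.20, adjusted p = 0.246). Without KO replicate 2 CDH6 was lower in KO than upon treatment (-0.72, adjusted p = 6.18e-04). The 6 fits that each left out 1 library gave -0.72 to -0.22 (adjusted p up to 0.577). With all libraries and no filter on low counts the difference was called (adjusted p = 1.67e-04) at nearly the same log2 fold change (-0.36). Dropping the filter, which raised the genes tested from 15402 to 29015, thus changed the adjusted p and hardly the difference.

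CDH2 (N-cadherin, ENSG00000170558, chr18:27932879-28177946, minus strand) had 4437, 4600 and 4760 counts in WT, 5325, 5816 and 6282 upon PT2385 treatment and 4399, 4253 and 4964 in KO. Scaled to depth, the 3 groups did not overlap, with PT2385 highest and KO lowest, at 382 ± 12.5, 434 ± 7.32 and 325 ± 25.1 CPM in WT, PT2385 and KO (SD, n = 3). PT2385 against WT gave a log2 fold change of 0.18 (SE 0.05, adjusted p = 0.0652, and 0.00777 with the replicate block), which was called with upper-quartile scaling (adjusted p = 0.0435) and with scaling by library size alone (0.0345). In KO CDH2 was down-regulated against WT (log2 fold change -0.22, SE 0.07, adjusted p = 0.0287) and against PT2385 (-0.42, SE 0.07, adjusted p = 0.00201). The call against WT was lost without WT replicate 1, 2 or 3 or KO replicate 2 (log2 fold change -0.24, -0.24, -0.20 and -0.16, adjusted p = 0.0588, 0.0740, 0.102 and 0.0950). The exons of CDH2 share 3.58% of their bases with genes on the opposite strand, and strandedness of the counting is not given.

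CDH24, a type II cadherin able to bind catenins, had 149, 145 and 145 counts in WT, 163, 217 and 215 upon PT2385 treatment and 97, 135 and 136 in KO. Its groups did not overlap, and the order was that of CDH2, with PT2385 at 14.8 ± 1.55, WT at 12.2 ± 0.299 and KO at 8.74 ± 1.09 CPM (SD, n = 3). CDH24 was lower in KO than in WT (log2 fold change -0.46, SE 0.13, adjusted p = 0.0213) and than upon PT2385 treatment (-0.76, SE 0.14, adjusted p = 0.00322), while PT2385 against WT gave 0.28 (adjusted p = 0.190). The call against WT was lost without any 1 WT replicate (log2 fold change -0.44, -0.49 and -0.47 without replicates 1, 2 and 3) or without KO replicate 1 (-0.36, adjusted p = 0.0853).

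CDH13 (T-cadherin, a cadherin held by a lipid anchor with no cytoplasmic tail) had 448, 490 and 409 counts in WT, 479, 518 and 458 upon PT2385 treatment and 726, 547 and 641 in KO. Its groups overlapped in every comparison, and none was called (log2 fold change 0.31, adjusted p = 0.0928 in KO against WT). Without KO replicate 2 it was higher in KO than in WT (0.43, adjusted p = 0.0154) and than upon PT2385 treatment (0.46, adjusted p = 0.0357). The 6 fits that each left out 1 library gave 0.15 to 0.43 and 0.17 to 0.46 (adjusted p up to 0.353 and 0.442). With all libraries and no filter on low counts both differences were called (adjusted p = 0.00925 and 0.0143). Their log2 fold changes (0.31 and 0.33) were nearly those with the filter. CDH13 shares 21.4% of its exon bases with a gene on the opposite strand. CDH16 (kidney-specific or Ksp-cadherin, of tubule epithelium) was sparse, with 9, 7 and 14 counts in WT, 17, 19 and 20 upon PT2385 treatment and 20, 48 and 19 in KO. All KO libraries were above all WT libraries (log2 fold change 1.32, SE 0.43, adjusted p = 0.0402), and KO replicate 2 was again the highest. The call was lost without KO replicate 2 (0.78, adjusted p = 0.173), WT replicate 1 (1.25, adjusted p = 0.116) or WT replicate 2 (1.10, adjusted p = 0.148).

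**Figure D3:**
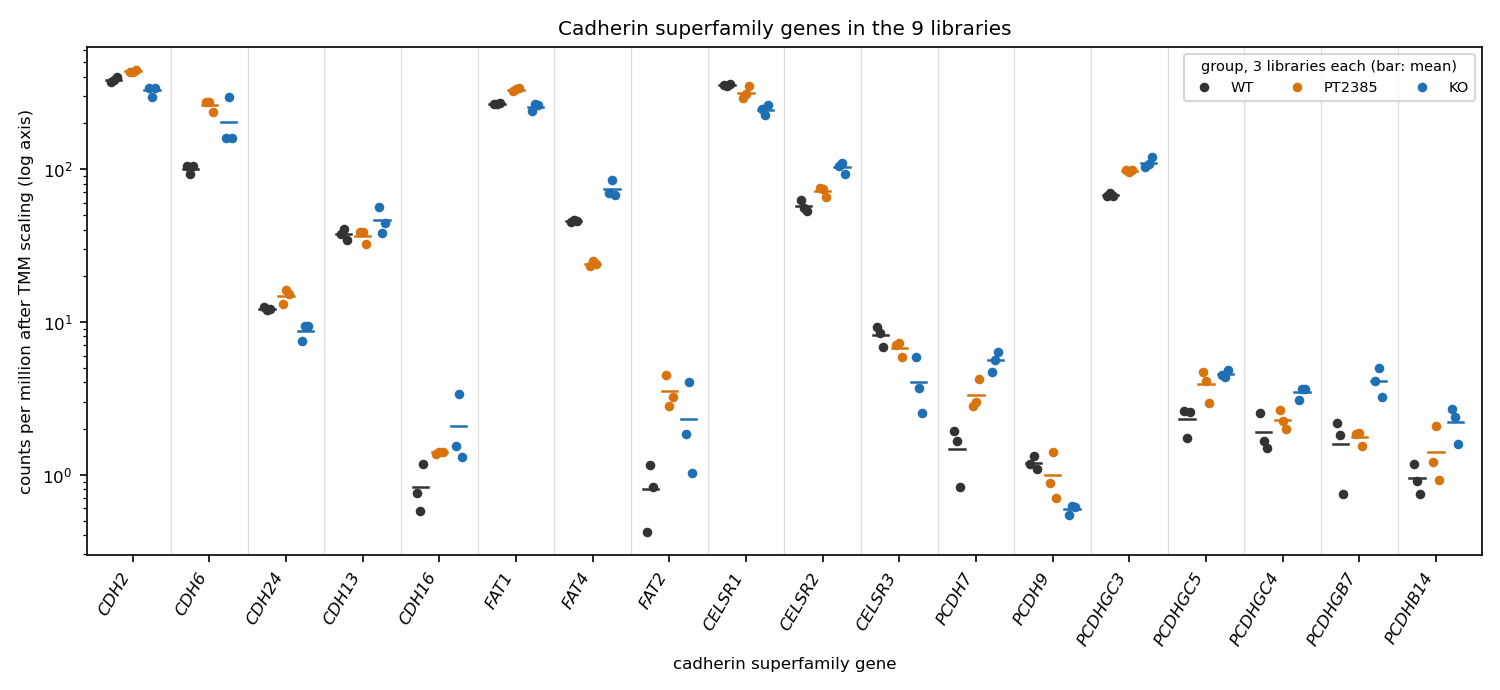
CPM after TMM scaling (log axis) of the 18 named cadherin superfamily genes, with a point for each of the 9 libraries and a bar at each group mean. CDH6 in KO spreads widely because replicate 2 held 4213 counts against 2054 and 2321 in the other KO libraries, and FAT4 separates all 3 groups.

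FAT4 (ENSG00000196159, chr4:125314918-125492932, plus strand), a giant cadherin that pairs with Dachsous between neighbouring cells, had 538, 559 and 551 counts in WT, 288, 333 and 340 upon PT2385 treatment and 905, 1219 and 979 in KO. No library of one group reached the range of another, and the inhibitor and the knockout lay on opposite sides of WT. The level was 45.7 ± 0.458 CPM in WT, 23.9 ± 0.820 upon PT2385 treatment and 73.9 ± 9.61 in KO (SD, n = 3). PT2385 lowered FAT4 to 0.523 of its WT level (log2 fold change -0.94, SE 0.08, adjusted p = 7.19e-06), whereas KO was 1.63-fold higher than WT (0.71, SE 0.09, adjusted p = 1.50e-04). KO and PT2385 differed from each other 3.08-fold (1.62, SE 0.10, adjusted p = 2.51e-06), and each of these calls held without any 1 library.

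FAT1 (ENSG00000083857, chr4:186587794-186726722, minus strand), a FAT cadherin at cell edges that works on actin, had 3155, 3205 and 3242 counts in WT, 4033, 4443 and 4766 upon PT2385 treatment and 3109, 3787 and 3817 in KO. The treated libraries lay above the rest, at 329.99 ± 5.76 CPM against 266 ± 3.34 in WT and 255 ± 13.3 in KO (SD, n = 3). FAT1 rose 1.24-fold upon PT2385 treatment (log2 fold change 0.31, SE 0.05, adjusted p = 0.00336) and was lower in KO than upon treatment (-0.37, SE 0.06, adjusted p = 0.00209). KO and WT overlapped (log2 fold change -0.05, adjusted p = 0.574).

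FAT2 (chr5:151504092-151591331, minus strand), a FAT cadherin of leading edges in moving epithelia, was sparse, with 5, 14 and 10 counts in WT, 56, 38 and 46 upon PT2385 treatment and 24, 58 and 15 in KO. All treated libraries were above all WT libraries (4.31-fold, log2 fold change 2.11, SE 0.34, adjusted p = 0.00190). KO overlapped both other groups, and its call against WT (1.52, SE 0.52, adjusted p = 0.0471) was lost without WT replicate 1, 2 or 3 (1.22, 1.87 and 1.55) and without KO replicate 1 or 2 (1.66 and 0.83, adjusted p = 0.0642 and 0.208). Without KO replicate 2, FAT2 was lower in KO than upon treatment (-1.29, adjusted p = 0.0270). The 6 fits of that comparison that each left out 1 library gave -1.29 to -0.24 (adjusted p up to 0.670). DCHS1, the Dachsous ligand of FAT4, had 35, 33 and 29 counts in WT, 41, 29 and 54 upon PT2385 treatment and 31, 24 and 30 in KO, and passed no test (log2 fold change 0.19 upon treatment, adjusted p = 0.707, and -0.39 in KO, adjusted p = 0.237). The other members of the subfamily, FAT3 and DCHS2, stayed at or under 3 counts in every library.

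The 3 CELSR cadherins, multi-pass receptors of planar cell polarity, moved in different directions in KO. CELSR1 (ENSG00000075275, chr22:46360834-46537620, minus strand) had 4240, 4202 and 4325 counts in WT, 3610, 4157 and 4931 upon PT2385 treatment and 3184, 3218 and 3797 in KO. All KO libraries were below all others, at 243 ± 18.1 CPM against 354 ± 7.38 in WT and 315 ± 29.0 upon treatment (SD, n = 3). It fell in KO against WT (log2 fold change -0.53, SE 0.07, adjusted p = 1.32e-04) and against PT2385 (-0.38, SE 0.08, adjusted p = 0.00900), and PT2385 against WT gave -0.17 (adjusted p = 0.161, and 0.0254 with the replicate block). Without PT2385 replicate 3 CELSR1 was lower upon treatment (-0.24, adjusted p = 0.0162), and the 6 fits that each left out 1 library gave -0.24 to -0.12 (adjusted p up to 0.375).

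CELSR2 (ENSG00000143126, chr1:109249539-109275751, plus strand) went the other way, with 743, 676 and 636 counts in WT, 929, 997 and 929 upon PT2385 treatment and 1354, 1573 and 1348 in KO. The groups did not overlap and rose in that order, from 57.0 ± 4.84 to 71.4 ± 5.21 to 102 ± 8.84 CPM (SD, n = 3). The rise was 1.25-fold upon PT2385 treatment (log2 fold change 0.32, SE 0.08, adjusted p = 0.0379), 1.81-fold in KO against WT (0.85, SE 0.09, adjusted p = 2.49e-05) and 1.43-fold in KO against PT2385 (0.51, SE 0.09, adjusted p = 0.00206). The first call was lost without WT replicate 2 or 3 (0.31 and 0.27, adjusted p = 0.152 and 0.140) and without PT2385 replicate 1 or 2 (0.28 and 0.29, adjusted p = 0.0708 and 0.178).

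CELSR3 (ENSG00000008300, chr3:48636463-48662886, minus strand), known from axon guidance, had 110, 103 and 82 counts in WT, 88, 98 and 84 upon PT2385 treatment and 76, 53 and 37 in KO. The KO libraries were lowest, at 4.03 ± 1.69 CPM against 8.18 ± 1.23 in WT (SD, n = 3; log2 fold change -1.02, SE 0.26, adjusted p = 0.0115). PT2385 and WT overlapped (-0.28, adjusted p = 0.356), and KO against PT2385 gave -0.76 (adjusted p = 0.0688), or -1.12 (adjusted p = 0.0119) without KO replicate 1. The latter difference was called with DESeq2 (adjusted p = 0.0459), with no filter on low counts (0.00221) and with all 9 libraries in 1 fit (0.0397). These settings gave log2 fold changes of -0.75, -0.76 and -0.76, so they changed the adjusted p and hardly the difference. The 6 fits that each left out 1 library gave -1.12 to -0.51 (adjusted p up to 0.202).

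Outside the clusters, 2 of 5 delta-1 protocadherins, 3 of 5 delta-2 protocadherins and all 3 remaining protocadherins had no count in any library. PCDH7 (ENSG00000169851, chr4:30720369-31146805, plus strand), a delta-1 protocadherin, had 23, 20 and 10 counts in WT, 35, 40 and 60 upon PT2385 treatment and 61, 81 and 93 in KO. The groups did not overlap, at 1.47 ± 0.570, 3.34 ± 0.772 and 5.57 ± 0.836 CPM in WT, PT2385 and KO (SD, n = 3). PCDH7 rose 2.27-fold upon PT2385 treatment (log2 fold change 1.18, SE 0.30, adjusted p = 0.0336), 3.81-fold in KO against WT (1.93, SE 0.27, adjusted p = 2.86e-04) and 1.66-fold in KO against PT2385 (0.73, SE 0.21, adjusted p = 0.0328). The first call was lost without WT replicate 2 or 3 (1.27 and 0.90) or PT2385 replicate 2 or 3 (1.25 and 0.98), and the last without PT2385 replicate 1 or 2 (0.63 and 0.66) or KO replicate 2 or 3 (0.73 and 0.62). PCDH7 shares 12.4% of its exon bases with genes on the opposite strand.

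PCDH9, another delta-1 protocadherin, had 14, 16 and 13 counts in WT, 11, 19 and 10 upon PT2385 treatment and 7, 9 and 9 in KO. KO lay below WT (log2 fold change -0.98, SE 0.32, adjusted p = 0.0408), a call that was lost without any 1 of the 6 libraries (-1.04 to -0.91, adjusted p = 0.0772 to 0.129) and with DESeq2 (adjusted p = 0.213), with no filter on low counts (0.0992) and with all 9 libraries in 1 fit (0.0511).

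The clustered protocadherins lie in 3 tandem arrays on chromosome 5, where each gene of the alpha and gamma arrays joins its own first exon to constant exons shared by its array. They make up 53 of the 98 genes, and 11 of them could be tested in at least 1 comparison. The alpha array was all but silent, with 4 counts over its 15 genes and 9 libraries, all in KO replicates 1 and 2. The beta array, whose 16 genes have 1 coding exon each, summed to 71, 52 and 55 counts in WT, 92, 101 and 90 upon PT2385 treatment and 114, 157 and 117 in KO. The gamma array of 22 genes summed to 987, 995 and 942 counts in WT, 1453, 1497 and 1587 upon PT2385 treatment and 1626, 1902 and 1992 in KO. In both sums every treated and every KO library was above every WT library.

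Entered as a single feature, the gamma sum rose 1.39-fold upon PT2385 treatment (log2 fold change 0.48, SE 0.06, adjusted p = 3.98e-04) and 1.64-fold in KO against WT (0.71, SE 0.06, adjusted p = 8.13e-06). KO against PT2385 gave 0.21 (SE 0.07, adjusted p = 0.0514, and 0.0217 to 0.0451 under the 5 alternative settings that called it). The beta sum rose 1.89-fold in KO against WT (0.92, SE 0.18, adjusted p = 0.00288), and PT2385 against WT gave 0.51 (SE 0.17, adjusted p = 0.104, and 0.0392 with the replicate block).

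**Figure D4:**
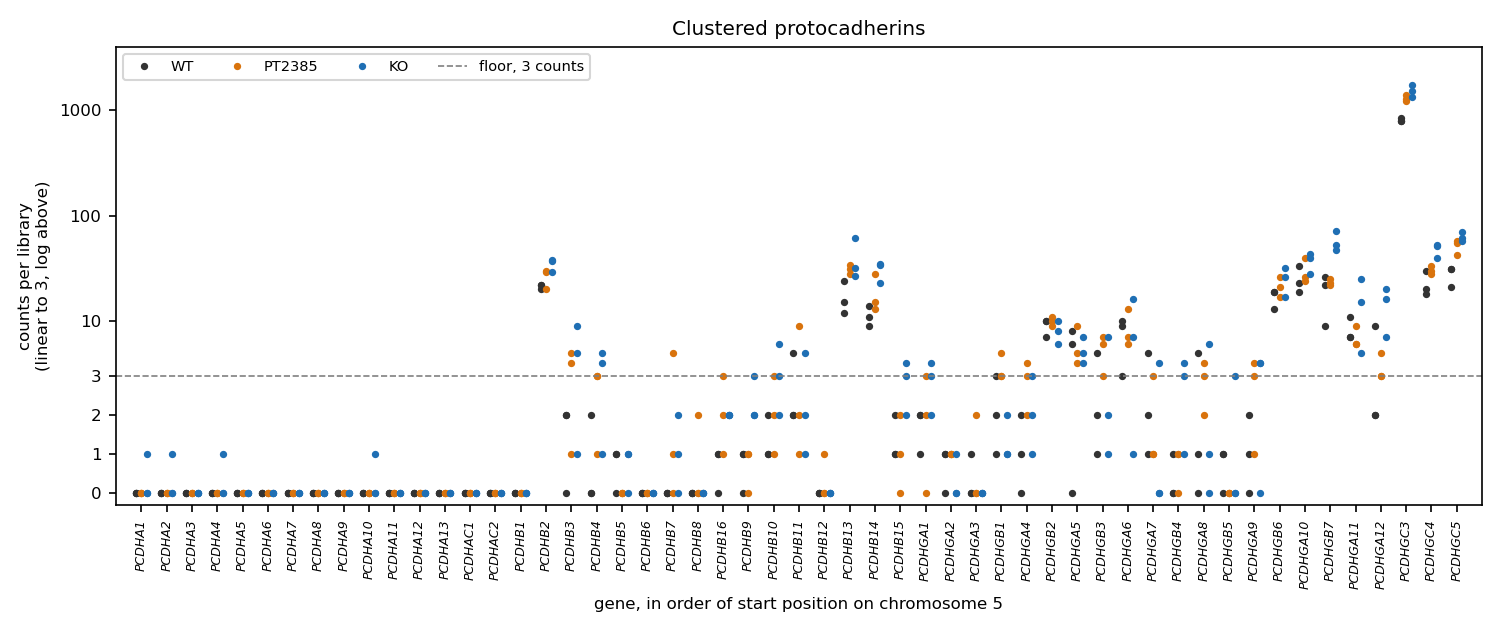
Counts of each of the 53 clustered protocadherin genes in the 9 libraries (axis linear to 3 counts, log above), ordered by start position on chromosome 5, with a dashed line at 3 counts. The alpha genes stay at 0 or 1, and PCDHGC3 lies far above the other genes, at 794 to 849 counts in WT and 1215 to 1741 in the treated and KO libraries.

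One gene carried the gamma array. PCDHGC3 (ENSG00000240184, chr5:141475947-141512977, plus strand), a C-type member that is expressed more widely than the other isoforms, supplied 80.5% to 88.0% of the gamma counts in each library. It had 794, 849 and 801 counts in WT, 1215, 1280 and 1396 upon PT2385 treatment and 1337, 1538 and 1741 in KO. The WT libraries were lowest and the groups did not overlap, at 67.7 ± 1.84, 97.0 ± 1.59 and 109.9 ± 8.42 CPM (SD, n = 3). PCDHGC3 rose 1.43-fold upon PT2385 treatment (log2 fold change 0.51, SE 0.06, adjusted p = 2.07e-04) and 1.64-fold in KO (0.71, SE 0.07, adjusted p = 2.64e-05), while KO against PT2385 gave 0.18 (adjusted p = 0.136). Because gamma genes share their constant exons, how the counting split reads between them is uncertain.

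The other C-type genes were sparse. PCDHGC5 had 31, 21 and 31 counts in WT, 58, 55 and 42 upon PT2385 treatment and 58, 62 and 70 in KO, with all WT libraries lowest. It rose 1.98-fold in KO (log2 fold change 0.99, SE 0.21, adjusted p = 0.00445), and PT2385 against WT gave 0.75 (adjusted p = 0.0980). With the replicate block and with no filter on low counts the log2 fold change was again 0.75 (adjusted p = 0.0452 and 0.0329). Without PT2385 replicate 3 it was 0.92 (adjusted p = 0.0266). The 6 fits that each left out 1 library gave 0.58 to 0.92 (adjusted p up to 0.299). PCDHGC4 had 30, 20 and 18 counts in WT, 33, 30 and 28 upon PT2385 treatment and 40, 52 and 53 in KO. Its KO libraries were above all others (1.84-fold over WT, log2 fold change 0.88, SE 0.24, adjusted p = 0.0182), a call lost without WT replicate 2 (0.78, adjusted p = 0.0794) or 3 (0.74, adjusted p = 0.0752).

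PCDHGB7, a B-type gamma gene, had 26, 22 and 9 counts in WT, 23, 25 and 22 upon PT2385 treatment and 53, 71 and 47 in KO. Only the KO libraries stood apart, 2.59-fold above WT (log2 fold change 1.38, SE 0.32, adjusted p = 0.00734) and 2.32-fold above PT2385 (1.22, SE 0.24, adjusted p = 0.00430). PT2385 against WT overlapped and gave 0.14 (adjusted p = 0.866). PCDHB14, a beta gene, had 14, 11 and 9 counts in WT, 15, 28 and 13 upon PT2385 treatment and 35, 34 and 23 in KO. It rose 2.34-fold in KO against WT (log2 fold change 1.23, SE 0.32, adjusted p = 0.0128), and the call was lost without WT replicate 2 (1.19, adjusted p = 0.0528), WT replicate 3 (1.09, adjusted p = 0.0572) or KO replicate 1 (1.07, adjusted p = 0.0533). The other tested clustered genes (PCDHB2, PCDHB13, PCDHGB2, PCDHGB6, PCDHGA10 and PCDHGA11) passed no test, with log2 fold changes of -0.01 to 0.71 upon PT2385 treatment and 0.35 to 1.03 in KO against WT where they were tested. PCDHB7, PCDHGB1 and PCDHGA4 passed 3 counts in PT2385 libraries alone, and PCDHB4, PCDHB10, PCDHB15, PCDHGA1 and PCDHGB4 in KO libraries alone, in every case in libraries of at most 6 counts.

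Promoters of clustered protocadherins are known for a short conserved element built around the letters CGCT. RefSeq windows (GRCh38.p14, 250 bases before to 50 after a start, 300 in all) matched 75 of the 98 genes in 96 windows. CGCT on the strand of the gene was in 98.1% of the 52 windows of clustered genes, in 56.8% of the 44 windows of the other cadherin superfamily genes and in 54.3% of the 35116 windows of all genes. On either strand the shares were 98.1%, 79.5% and 70%. The windows of PCDHGC3, PCDHGB7 and PCDHB14, which are 3 of the clustered genes higher in KO, are shown with each CGCT, on either strand, in capitals, at chr5:141475716-141476015 for the first, chr5:141417427-141417726 for the second and chr5:141223093-141223392 for the last, all on the plus strand.
PCDHGC3: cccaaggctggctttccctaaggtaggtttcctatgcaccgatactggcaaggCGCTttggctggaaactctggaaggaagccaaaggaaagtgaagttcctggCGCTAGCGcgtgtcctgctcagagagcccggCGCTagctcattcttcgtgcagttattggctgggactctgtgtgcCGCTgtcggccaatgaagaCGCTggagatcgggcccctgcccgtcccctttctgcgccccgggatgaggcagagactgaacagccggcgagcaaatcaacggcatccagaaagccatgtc
PCDHGB7: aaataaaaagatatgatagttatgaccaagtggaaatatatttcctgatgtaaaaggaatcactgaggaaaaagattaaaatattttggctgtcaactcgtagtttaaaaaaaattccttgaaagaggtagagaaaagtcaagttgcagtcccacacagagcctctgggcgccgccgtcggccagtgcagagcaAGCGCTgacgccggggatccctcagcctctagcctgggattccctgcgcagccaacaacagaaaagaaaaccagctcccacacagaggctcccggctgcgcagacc
PCDHB14: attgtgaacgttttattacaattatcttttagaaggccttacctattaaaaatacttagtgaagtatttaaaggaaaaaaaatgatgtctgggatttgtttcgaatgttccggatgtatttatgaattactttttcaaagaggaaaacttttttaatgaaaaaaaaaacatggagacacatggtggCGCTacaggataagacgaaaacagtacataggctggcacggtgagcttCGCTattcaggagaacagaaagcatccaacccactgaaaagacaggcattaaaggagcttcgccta
PCDHGC3 held 6 matches, 1 pair of which abuts, PCDHGB7 held 2 overlapping matches on opposite strands at 56 and 54 bases before the start, and PCDHB14 held 2, at 64 and 16 bases before it. A match is a run of letters and not a measured site.

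Hypoxia-inducible factors bind the core ACGTG, and the windows were searched for it on both strands. It was in 21.4% of the windows of all genes, in 15.6% of those of the superfamily, in 19.2% of those of clustered genes and in 7.14% (1 of 14) of the windows of genes called in any comparison. These windows belong to 11 of the 17 called genes, and CDH6, CDH16, CDH24, FAT4, CELSR1 and PCDHGC5 were not searched. That window is the one of CELSR3, at chr3:48662837-48663136 on the minus strand, shown with the match in capitals, as CACGT on the strand of the gene, because it is the 1 window with a match among those searched for called genes.
CELSR3: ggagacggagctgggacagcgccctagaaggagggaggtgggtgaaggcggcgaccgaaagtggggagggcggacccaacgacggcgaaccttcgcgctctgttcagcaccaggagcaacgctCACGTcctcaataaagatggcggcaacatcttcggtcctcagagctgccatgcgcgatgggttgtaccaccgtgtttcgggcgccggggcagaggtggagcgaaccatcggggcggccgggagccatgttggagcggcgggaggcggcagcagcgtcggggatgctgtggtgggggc
The match starts 127 bases before the start of the gene. No match within 300 bases says only that these letters are not in the window.

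Proteins that work with cadherins were followed as lists of 95 genes in all, chosen with earlier results of these data known. Upon PT2385 treatment 7 were higher and 6 lower of 77 tested, or 16.9% called, where 7.7% of all genes were called. In KO against WT 15 were higher and 19 lower of 77, or 44.2% against 30.1% of all genes, and in KO against PT2385 8 and 7 of 76, or 19.7%, near the 18.8% of all genes. The shares given for single lists rest on few genes and describe them only. Catenins bind the cytoplasmic tail of classical cadherins. Of 12 tested genes among the 15 catenins and junction adaptors, 2 were down-regulated upon PT2385 treatment (16.7% against 7.7% of all genes), and in KO 3 were higher and 4 lower than in WT (58.3% against 30.1%). The alpha-T-catenin gene CTNNA3 fell from 4.91 ± 2.38 CPM in WT to 0.549 ± 0.154 upon PT2385 treatment (log2 fold change -3.14, adjusted p = 4.96e-04) and by 3.33 on the log2 scale in KO (adjusted p = 1.73e-04). The afadin gene AFDN changed by -0.21 upon treatment (adjusted p = 0.0476). JUP (plakoglobin) and PKP2 (plakophilin 2), which also serve desmosomes, were higher in KO than in WT (2.08 and 1.31) and than upon PT2385 treatment (1.504 and 1.262), as was CTNNAL1 in the latter comparison (0.27). These 3 were 27.3% of the list's tested genes in KO against PT2385, where 18.8% of all genes were called. Of the 7 desmosomal cadherins only 1 was tested, and it was not called in any comparison. Among 8 cadherin-related genes outside the rule, CDHR1 was lower upon PT2385 treatment (-0.99) and in KO (-2.20), and CLSTN1 was lower in KO than in WT (-0.30) and PT2385 (-0.32). Of the 4 tested, 25% were called upon PT2385 treatment, 50% in KO against WT and 25% in KO against PT2385. The shares of all genes were 7.7%, 30.1% and 18.8%.

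Of 18 tested genes of the Hippo pathway, 3 were up-regulated upon PT2385 treatment and none was down-regulated (16.7% called against 7.7% of all genes). In KO against WT 3 were higher and 2 lower (27.8% against 30.1%), and in KO against PT2385 1 and 1 (11.1% against 18.8%), which is no more than the share of all genes. Those up-regulated upon treatment were the pathway target CCN2 (log2 fold change 0.996, adjusted p = 7.32e-04), the transcription factor gene TEAD3 (0.49, adjusted p = 0.0403) and NF2 (0.25, adjusted p = 0.0445), and KO against WT gave 1.38 for CCN2, 0.997 for TEAD3 and -0.43 for the four-jointed gene FJX1. KO and PT2385 differed in FJX1 (-0.52) and TEAD3 (0.49). Of 9 tested planar polarity genes that act with CELSR proteins, PRICKLE2 (0.54, adjusted p = 0.00463) and PRICKLE1 (0.44, adjusted p = 0.00136) were up-regulated upon PT2385 treatment. They were 22.2% of those tested, against 7.7% of all genes. In KO 3 were higher than in WT and 1 was lower (44.4% against 30.1% of all genes), with PRICKLE1 at 0.81, DVL1 at 0.28 and SCRIB at 0.26. KO lay below PT2385 in PRICKLE2 (-0.58) and above it in PRICKLE1 (0.35), or 22.2% called against 18.8% of all genes.

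Of the 8 proteases that shed or cut cadherins, none was called upon PT2385 treatment, and in KO against WT 2 were higher and 2 lower (50% called against 30.1% of all genes). ADAM10, the main sheddase of N-cadherin, fell from 305 to 199 CPM in KO (log2 fold change -0.60, adjusted p = 1.98e-05), while the gamma-secretase genes PSEN2 and APH1B gave 0.92 and -0.81. KO against PT2385 gave -0.46 for ADAM10, 0.81 for PSEN2 and -0.91 for APH1B, or 37.5% called against 18.8% of all genes. Of the 9 genes of the WAVE complex, which some protocadherins recruit to actin, ABI2 (0.29) and WASF2 (-0.21) were called upon PT2385 treatment. They were 22.2% of the list, where 7.7% of all genes were called. In KO against WT 3 were higher and 2 lower (55.6% against 30.1% of all genes), with WASF3 at 1.34, CYFIP2 at 0.49 and CYFIP1 at -0.30. KO against PT2385 gave 1.40, 0.46 and -0.29 for these genes, or 33.3% called against 18.8% of all genes.

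Of 11 genes for CTCF, cohesin and silencing factors known to act on the protocadherin arrays, SMC3 was down-regulated upon PT2385 treatment (-0.34, adjusted p = 0.0161), or 9.09% called against 7.7% of all genes. In KO none was higher and 5 were lower than in WT (45.5% called, where 15.4% of all genes were called lower and 30.1% either way), with SMC3 at -0.28, SMC1A at -0.28 and CTCF at -0.26. CTCF was also lower in KO than upon treatment (-0.30), or 9.09% called against 18.8% of all genes. The median log2 fold change of the 11 was -0.15 upon treatment and -0.17 in KO. Of 5 tested repressors of E-cadherin, SNAI2 rose upon PT2385 treatment (0.57, adjusted p = 0.0140) and in KO (0.93, adjusted p = 3.81e-04), whereas ZEB2 fell in both (-0.48 and -0.38, adjusted p = 0.0341 and 0.00161). KO against PT2385 called none of the 5, and each comparison against WT called 40%, where 7.7% and 30.1% of all genes were called.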

How the data were processed

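RNA-seq of 9 libraries of 786-0 cells was analysed. The authors deposited raw counts per gene in a single table. Per the labels and the submitters' processing notes, reads passed FastQC and cutadapt, were aligned to GRCh38 (hg38) with STAR and counted with featureCounts. Versions, annotation release and strandedness are not given in the sources used here. A setting that splits or drops reads shared by overlapping genes would change values of the gamma protocadherins and of genes with antisense partners.

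Ensembl IDs were paired with GENCODE release 44 symbols (58207 of 58735 rows). Each pair of groups (n = 3 each) was fitted across all genes with edgeR 4.0.16 in R 4.3.3 (filterByExpr with a minimum of 10 counts, TMM scaling, glmQLFit and glmQLFTest) with Benjamini-Hochberg adjustment over all genes tested, and a gene was called at an adjusted p under 0.05. SE is the absolute log2 fold change divided by the square root of F. CPM uses library totals of 11881000 to 14730081 counts multiplied by the TMM factors. The fit was tested on simulated data. In a separate fit of the same kind, 3 array sums replaced the rows of the clustered protocadherins, with the adjustment over that set of features. Motifs were searched in RefSeq promoter windows.

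Named were genes called in any comparison, those averaging 100 counts or more, and the 3 called partner genes of each list and comparison with the largest log2 fold change. The genes and lists, and the CGCT motif, were chosen with earlier results of these data known. Levels of a Y-linked member were not reported. Deviations of same-numbered libraries from their group means correlated at 0.404, 0.104 and 0.387 between PT2385 and WT (11487 genes). The replicate block takes these numbers, which come from the labels, to pair the libraries, though the labels state no pairing. Blocked values stand beside results whose call they change, or in the closing section for comparisons with KO. Alternatives were DESeq2 1.42.0, other scalings, other filters, all 9 libraries in 1 fit, the replicate block, and leaving out each library.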

Additional observations from a re-analysis of the deposited data

How the results depend on the processing

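Leaving out 1 library at a time gave 5 to 8 members of the superfamily called in PT2385 against WT, 10 to 17 in KO against WT and 7 to 10 in KO against PT2385, and over all genes 574 to 1451, 3344 to 5094 and 1836 to 3190. The remaining alternatives gave 6 to 10, 11 to 18 and 8 to 12 members. With the replicate block all genes called in PT2385 against WT rose to 2305, and the beta protocadherin sum was called there (log2 fold change 0.52, adjusted p = 0.0392). The gamma sum in KO against PT2385 was called with RLE scaling, as in DESeq2 (0.22, adjusted p = 0.0451), upper-quartile scaling (0.22, 0.0373), a filter that keeps genes with 10 counts or more in each library (0.23, 0.0364), the replicate block (0.21, 0.0332) and all 9 libraries in 1 fit (0.21, 0.0217). Directions turned among values that were not called, both in PT2385 against WT: CDH13 gave -0.10 to 0.0477 (0.0236 without WT replicate 2 and 0.0477 without PT2385 replicate 3), and PCDHGB7 gave -0.19 to 0.44 (-0.19 without WT replicate 3). Same-numbered libraries correlated at 0.279, 0.0327 and 0.419 between KO and WT and at 0.307, 0.0625 and 0.374 between KO and PT2385. These values are much like those between PT2385 and WT. Libraries of unlike number correlated at -0.4068 to 0.07863 between PT2385 and WT, below every same-numbered value there. The range was -0.4099 to 0.2497 between KO and WT and -0.343 to 0.1526 between KO and PT2385. In each comparison with KO the highest of these lay above the same-numbered value of replicate 2 (0.0327 and 0.0625). Whether a shared number marks a pairing was not tested in any comparison. With the block, PCDH9 was no longer called in KO against WT (adjusted p = 0.0624), PCDHB13 was called there (0.0438), and CDH13, CDH6 and CELSR3 were called in KO against PT2385 (0.0480, 0.0314 and 0.0146). Beside these and the calls given with the results, the block changed no call among the 98 genes and the array sums. Counting error limits genes of a few counts, such as FAT2, CDH16, PCDH9 and most clustered protocadherins, and the cause of the changes above was not tested.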
